A study of Mus musculus with 67 samples.

Results

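The regions described here were 665 of the 111638 chromatin elements measured in mouse neural progenitors (NPs), elements that were accessible in p3 progenitors at day 4, were less accessible there at day 6, and at day 6 were lower in p3 than in every other progenitor type. They were chosen by their mean variance-stabilized value (VST, a log2-scale accessibility value) per day and cell type, with concentrations of the Shh agonist SAG pooled. A member had a p3 mean of at least 6.5 at day 4, a p3 mean at least 0.75 lower at day 6, and at day 6 a mean in each of p0-1, p2 and pMN at least 1 above that in p3. Those values are therefore given as a description with no test, and tests were kept to samples that the choice did not use, which were the day 3 samples, the p0-1, p2 and pMN samples of day 4 and all samples of day 5. The tested samples carry the same replicate numbers as those of the choice, and day 5 lies between its days. The tests therefore cannot be taken as independent of the choice.

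Wild-type HM1 mouse embryonic stem (ES) cells, an established line, were differentiated to neuromesodermal progenitors (NMPs, day 3) and then, in retinoic acid and SAG, to spinal cord NPs. For ATAC-seq, in which a transposase tags open DNA, fixed cells were first transposed, then stained for intracellular transcription factors and sorted. The 67 samples were NMPs at day 3 without SAG (n = 3) and, at days 4, 5 and 6, p0-1 NPs at 0 and 10 nM SAG, p2 NPs at 10 and 100 nM, and pMN and p3 NPs at 100 and 500 nM, with 2 or 3 replicates for each of 25 conditions. Cells gated as p3 were SOX2+ NKX2.2+ OLIG2-. Since p0-1 and p3 NPs shared no SAG concentration, cell type and concentration cannot be told apart between them, whereas pMN and p3 NPs were sorted from the same 2 concentrations. Samples held 9298160 to 29985325 reads in elements (median 20254011), and the shallowest sample was 1 of the p3 samples at day 4 and 100 nM. Samples were bulk, so fewer cells with an open element and less opening per cell cannot be told apart. The replicates were independent differentiations of 1 cell line, per the study's legends. Pooled groups held 2 SAG concentrations, with replicate numbers shared between concentrations and cell types. At day 5 all 9 pairs of p3 and pMN samples with the same number deviated together from their condition means, at a correlation above 0.1. The main fits counted such samples as separate, so p values do not measure the spread between differentiations alone.

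In the developing spinal cord a gradient of Shh from the notochord and floor plate divides ventral progenitors into domains, with p3 the most ventral NP domain, followed dorsally by pMN, which makes motor neurons, and by p2 and p0-1, which make interneurons. Accessible elements away from promoters are where enhancers, silencers and insulators are found, and SOX factors such as SOX2 and SOX1 bind many of those that are open in neural progenitors. Closure of an element means that the transposase reaches it less often, which happens when nucleosomes cover it.

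The members were distal elements. In the annotation deposited with the values, 350 of the 665 were intergenic (52.6%, against 44.2% of all elements), 288 were intronic, 13 exonic, 7 at transcription termination sites and 7 at promoters (1.05%, against 7.41% of all elements). Their median distance from the nearest transcription start site (TSS) was 52296 bp, against 32610.5 bp for all elements, and 50.8% lay beyond 50 kb, against 39.8%. They were wider, with a median of 1217 bp against 883 bp, and had a median GC content of 46.2% against 48.1%. These traits were not particular to the members. In 697 elements opened and kept in p3 NPs, a set defined below, the median width was 1223 bp and the median GC content 46.1%. Their median TSS distance was 49394 bp, with 49.8% beyond 50 kb, whereas 44.5% were intergenic and 2.30% at promoters. The members were spread over 624 nearest genes, 588 of which had 1 member, and only 20 pairs of neighboring members lay within 50 kb of each other. Chromosome 8 held 59 of the members, or 8.87%, against 5.87% of all elements.

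The sequences of a few members are shown, since the elements are known only by position. The first 5 are the members with the largest day 5 difference between pMN and p3 NPs, each as the 300 bp around its center, on the forward strand of mm10. Capitals mark a SOX word, CATTGTT, or an NFI half-site, TTGGCA, on either strand. The Mir7j window is chr3:139932923-139933222, intergenic and 95177 bp from the TSS of the microRNA gene Mir7j. The Vps54 window is chr11:21168929-21169228, intergenic and 69954 bp from Vps54, which encodes a vesicle tethering subunit. The AU023762 window is chr9:113486703-113487002, the A330076C08Rik window is chr13:44317241-44317540 and the 1700061F12Rik window is chr2:8498535-8498834, all intergenic and nearest to non-coding transcripts.
Mir7j window: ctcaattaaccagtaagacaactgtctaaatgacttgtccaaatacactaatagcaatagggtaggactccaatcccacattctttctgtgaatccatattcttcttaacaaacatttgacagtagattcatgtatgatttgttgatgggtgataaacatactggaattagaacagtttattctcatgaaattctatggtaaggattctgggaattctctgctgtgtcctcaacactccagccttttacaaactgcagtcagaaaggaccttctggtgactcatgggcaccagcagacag
Vps54 window: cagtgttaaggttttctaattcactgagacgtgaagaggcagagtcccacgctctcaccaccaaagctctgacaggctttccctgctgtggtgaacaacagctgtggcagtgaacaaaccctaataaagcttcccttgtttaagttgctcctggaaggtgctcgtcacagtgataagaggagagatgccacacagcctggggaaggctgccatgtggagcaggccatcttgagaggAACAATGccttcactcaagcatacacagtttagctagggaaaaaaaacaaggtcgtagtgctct
AU023762 window: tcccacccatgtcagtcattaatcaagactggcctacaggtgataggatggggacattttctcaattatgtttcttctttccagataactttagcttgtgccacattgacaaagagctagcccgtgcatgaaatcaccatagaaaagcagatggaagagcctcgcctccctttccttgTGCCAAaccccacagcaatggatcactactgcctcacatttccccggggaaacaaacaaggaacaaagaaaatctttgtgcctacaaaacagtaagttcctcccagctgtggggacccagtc
A330076C08Rik window: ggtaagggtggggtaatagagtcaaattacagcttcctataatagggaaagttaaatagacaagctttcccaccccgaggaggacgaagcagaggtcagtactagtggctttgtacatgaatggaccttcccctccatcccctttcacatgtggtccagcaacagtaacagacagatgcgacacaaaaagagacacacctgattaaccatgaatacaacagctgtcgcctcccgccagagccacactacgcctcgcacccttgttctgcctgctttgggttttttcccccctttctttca
1700061F12Rik window: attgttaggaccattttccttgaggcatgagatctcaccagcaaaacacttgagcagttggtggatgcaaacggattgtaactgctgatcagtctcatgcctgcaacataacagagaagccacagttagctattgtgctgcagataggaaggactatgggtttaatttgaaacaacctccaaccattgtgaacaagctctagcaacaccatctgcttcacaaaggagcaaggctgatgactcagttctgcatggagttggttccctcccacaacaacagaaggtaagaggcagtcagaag

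The only SOX word among these 5 windows was in the Vps54 window, at bases 237 to 243 on the reverse strand, and the only NFI half-site was in the AU023762 window, at bases 179 to 184 on the reverse strand. The next 3 members in the order of the day 5 difference that held a SOX word are shown beside them, and were chosen after their values were seen. They are nearest to Kitl, which encodes KIT ligand (chr10:100128155-100128454, intergenic), to B930025P03Rik within intron 29 of 34 of Myo16 (chr8:10558813-10559112), and to Rtca, which encodes an RNA cyclase (chr3:116480211-116480510, intergenic). Their SOX words lie at bases 129 to 135 on the reverse strand, 222 to 228 on the forward strand and 75 to 81 on the reverse strand.
Kitl window: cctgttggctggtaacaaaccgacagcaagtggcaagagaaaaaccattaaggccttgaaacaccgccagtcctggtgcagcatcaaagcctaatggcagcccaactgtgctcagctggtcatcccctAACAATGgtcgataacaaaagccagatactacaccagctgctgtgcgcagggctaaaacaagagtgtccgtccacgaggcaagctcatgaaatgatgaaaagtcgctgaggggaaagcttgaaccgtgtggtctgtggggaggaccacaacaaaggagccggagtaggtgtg
B930025P03Rik window: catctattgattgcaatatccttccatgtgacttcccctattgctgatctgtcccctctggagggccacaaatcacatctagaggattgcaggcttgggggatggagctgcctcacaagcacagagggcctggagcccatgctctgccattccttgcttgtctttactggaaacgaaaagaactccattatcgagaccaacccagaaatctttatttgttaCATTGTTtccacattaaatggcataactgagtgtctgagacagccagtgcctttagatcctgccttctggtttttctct
Rtca window: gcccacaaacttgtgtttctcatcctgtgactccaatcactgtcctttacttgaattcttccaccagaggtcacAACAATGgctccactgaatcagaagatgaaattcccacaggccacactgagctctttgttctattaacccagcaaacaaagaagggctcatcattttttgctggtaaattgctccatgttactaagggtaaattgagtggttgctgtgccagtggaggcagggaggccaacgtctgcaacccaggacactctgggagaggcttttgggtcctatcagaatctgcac

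The SOX word was held by 101 of the 665 central windows, or 15.2%, against 7.60% of the windows of all 111638 elements and 8.05% of those outside promoters. Of 19 short words searched on both strands, this was the one with the largest gap between members and all elements as a ratio. Among the 515 members that were at least 1 VST above NMPs in p3 NPs at day 4 it was in 17.7% of windows, and among the other 150 in 6.67%. The homeodomain word TAATTA was in 9.62% of member windows against 7.85%, the NFI half-site TTGGCA in 16.8% against 14.9%, the NKX2 word CACTTAA in 3.76% against 3.47%, the POU word ATGCAAAT in 2.56% against 2.30% and the ZIC word CAGCAGG in 13.2% against 12.7%. The FOX word TGTTTAC was in 3.91% against 4.96%, the RFX half-site GTTGCCA in 2.56% against 4.57%, the CTCF core AGGGGGC in 5.41% against 6.68% and the GLI word GACCACCCA in 0.301% against 0.392%. Of the E-boxes, CAGATG was in 21.7% against 25.7%, CATATG in 4.96% against 5.22%, CAGCTG in 21.2% against 21.1% and CAGGTG in 16.5% against 18.7%. The remaining words were the TEAD word CATTCC (19.1% against 20.3%), the TCF/LEF word CTTTGAT (4.81% against 5.04%), the HOX/CDX word CCATAAA (4.21% against 4.03%), the MEIS word CTGTCA (20.5% against 23.2%) and the AP-1 word TGANTCA (8.87% against 9.72%). These are shares of windows that hold the letters, and no binding was measured.

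**Figure D1:**
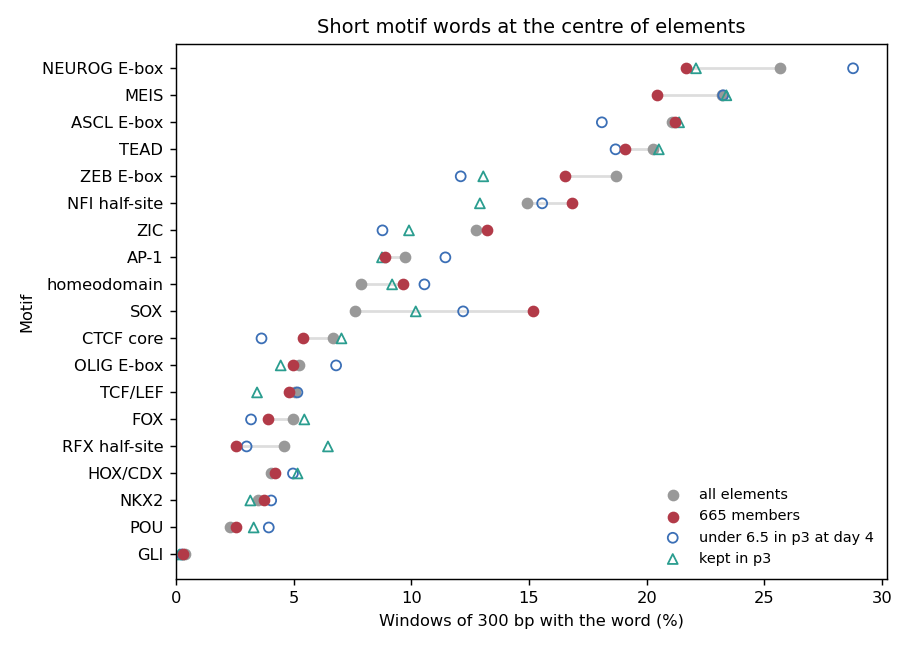
Share of 300 bp windows (x axis, %) that held each of 19 motif words (y axis), for the 665 members, all 111638 elements and both comparison sets. The SOX word stood at 15.2% in members and 7.60% in all elements, the widest gap relative to its level.

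Accessibility of the members over time differed between p3 and the other types. The median member mean was 5.17 VST in NMPs, and at day 4 it was 8.22 in p0-1, 8.48 in p2, 8.48 in pMN and 7.46 in p3 NPs. It stayed at 8.45, 8.50 and 8.39 in p0-1, p2 and pMN NPs at day 5 and at 8.31, 8.27 and 8.13 at day 6. In p3 NPs it was 6.77 at day 5 and 5.93 at day 6. The median over all elements was between 5.41 and 5.71 in every day and type. In normalized counts, which are reads divided by a size factor for the sample, the median member stood at 25.1 in NMPs, at 167 in p3 NPs at day 4, at 98.7 at day 5 and at 50.6 at day 6, while in pMN NPs it stood at 346, 326 and 274.

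**Figure D2:**
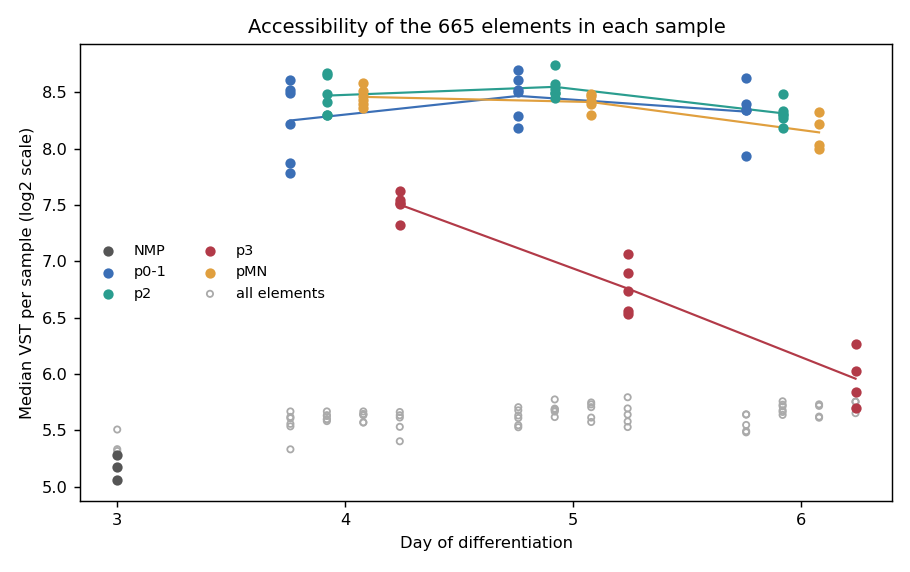
Median VST of the 665 members in each sample (filled points, y axis, log2 scale) by day (x axis) and cell type, with lines through the mean of the samples and open circles for the median of all elements. The p3 samples lie below every other NP sample at each of days 4, 5 and 6, and reach 5.70 to 6.26 at day 6. The choice used the day 6 samples and the p3 samples of day 4.

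The p3 samples were separate from the other NP samples on each day. At day 4 the median over members was between 7.32 and 7.62 in the 5 p3 samples, and between 7.78 and 8.67 in the 18 samples of the other types. At day 5 it was between 6.53 and 7.07 in p3 samples, and 8.19 or more in all others. At day 6 the p3 samples from 500 nM SAG had 5.70 and 5.84 and those from 100 nM had 6.03 and 6.26, a description of samples that the choice used.

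Opening and later closing, counted apart, each fitted most members and not all of them. In p3 NPs at day 4, 515 of the 665 (77.4%) were at least 1 VST above NMPs, with a median over all members of 2.46, whereas 73 were below their NMP level, and 162 had already reached 6.5 in NMPs. At day 6, 462 members (69.5%) were under 6.5 in p3 NPs and the other 203 were still at or above it. The p3 level at day 6 was above the NMP level in 449 members and at least 1 VST above it in 279. Of the 515 members, 133 were at most 0.5 VST above their NMP level in p3 NPs at day 6. The fall from day 4 to day 6 had a median of 1.47 VST and ranged from 0.75, the bound set by the choice, to 4.50, and the median ratio of mean normalized counts was 3.16.

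The decline ran through both intervals in most members. The day 5 mean lay between those of day 4 and day 6 in 619 of 665, at or above day 4 in 38 and at or below day 6 in 8. By day 5 the median member had lost 47.1% of its fall in VST (quartiles 29.3% and 60.4%). Already at day 4, p3 had the lowest mean of the 4 types in 550 members and was at least 1 VST below each of the others in 143. The median difference between the mean of the other types and p3 was 0.71 VST at day 4, 1.50 at day 5 and 2.00 at day 6.

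**Figure D3:**
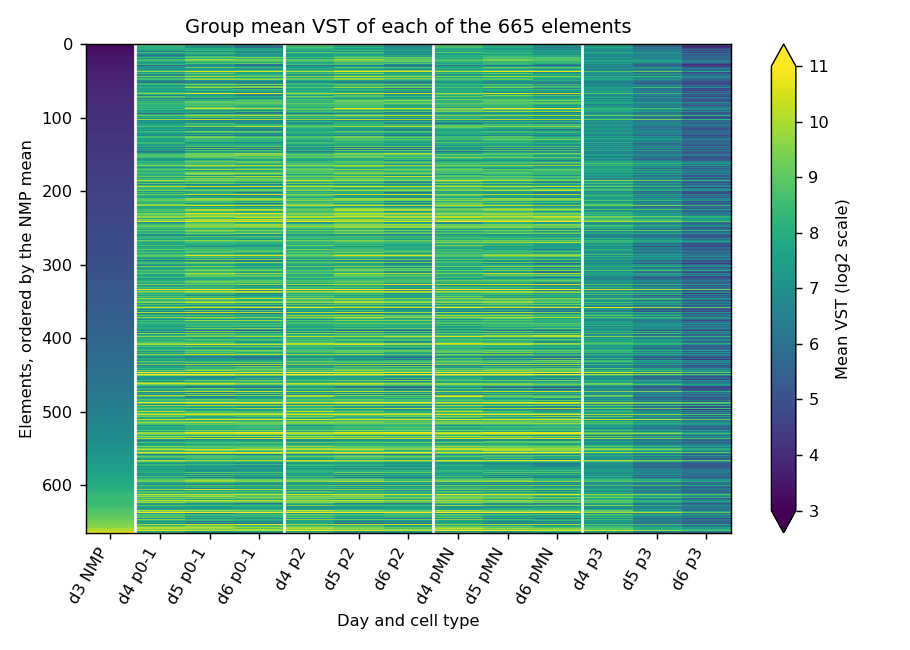
Mean VST (color, log2 scale) of each of the 665 members (rows, ordered by their NMP mean) in NMPs and in each NP type at days 4, 5 and 6 (columns). Levels stay high in p0-1, p2 and pMN NPs, whose medians are 8.13 or more, and drop across the 3 p3 columns from a median of 7.46 to 5.93.

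Elements lay close on either side of each bound. The 3 members nearest to the level bound had p3 day 4 means of 6.501, 6.502 and 6.506 (nearest genes Cpn2, Npsr1 and Mir5120), and the 3 elements just under it 6.4997, 6.491 and 6.487 (Gabrg3, Dhrs2 and Nxph1). At the bound on the fall, members had falls of 0.7503, 0.753 and 0.753 (Zbtb20, Nwd1 and Grm2) and the nearest others 0.746, 0.741 and 0.733 (Gm26994, Nostrin and LOC102632463). At the bound on the day 6 deficit, members had 1.000, 1.002 and 1.005 (Mir6372, 1700010K23Rik and Gm10637) and others 0.997, 0.995 and 0.994 (Btn1a1, Ttc29 and Kis2). Elements that missed the level bound alone numbered 1006, those that missed the fall alone 557, and those that missed the deficit alone 5181.

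Whether the members were already lower in p3 NPs at day 5, in samples not used to choose them, was tested with limma on all 111638 elements, with a call at a Benjamini-Hochberg adjusted p under 0.01 and a VST difference above 1. Against pMN NPs (n = 5 and 5), 509 of 665 members were lower in p3 and 0 higher, with a median difference of -1.43 VST, beside 12.1% of all elements called lower. Against p2 (n = 6 and 5), 522 were lower and 0 higher (median -1.55), beside 12.4% of all elements. Against p0-1 (n = 6 and 5), 487 were lower and 0 higher (median -1.50), beside 9.75%. These 3 comparisons share their p3 samples. The median over all elements was 0.03, 0.03 and 0.00. Lower calls against all 3 types were made for 420 members, beside 4.90% of all elements, against at least 1 for 578, beside 18.3%, and against none for 87.

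The day 5 difference was present at equal SAG concentration. At 100 nM (n = 3 and 3), 523 members were lower in p3 than in pMN NPs, beside 13.1% of all elements, and at 500 nM (n = 2 and 2), 379 were, beside 5.04%. At 100 nM, 518 members were lower in p3 than in p2 NPs (n = 3 and 3), beside 9.53%. In every one of these fits 0 members were called higher in p3. Between p3 NPs from 100 nM and from 500 nM at day 5 (n = 3 and 2), limma called 0 members higher and 0 lower, beside 0.0% of all elements in either direction, where 5 members had an unadjusted p under 0.05. When replicates were blocked, 1 member was called lower at 500 nM.

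**Figure D4:**
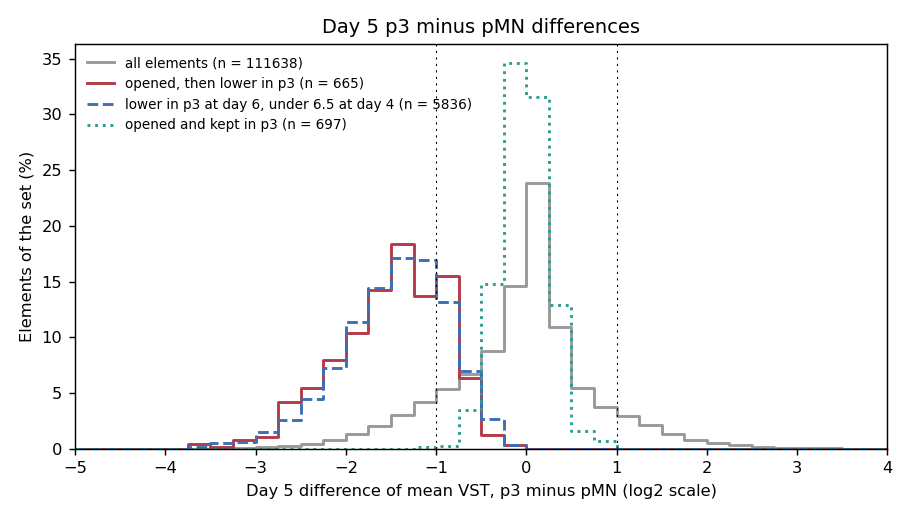
Distribution of the day 5 difference in mean VST between p3 and pMN NPs (x axis, p3 minus pMN, bins of 0.25) as a percentage of each set (y axis), with dotted lines at -1 and 1. Members have a median of -1.43, elements lower in p3 at day 6 but under 6.5 at day 4 one of -1.40, elements opened and kept in p3 lie around -0.03, and all elements around 0.03.

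The members opened between NMPs and day 4 in the other types. From NMPs (n = 3) to day 4 (n = 6), 563 members were called higher and 17 lower in p0-1 NPs, beside 23.3% and 18.6% of all elements. In p2 NPs 578 were higher and 15 lower, beside 28.0% and 20.2%, and in pMN NPs 575 were higher and 17 lower, beside 28.1% and 20.4%. Median differences were 3.01, 3.30 and 3.28 VST. These 3 comparisons share the NMP samples. In all 3 types 559 members were called higher, beside 20.8% of all elements. Of the 515 members that had risen by at least 1 VST in p3 NPs, 514 were called higher in pMN NPs, and of the other 150, 61 were. This split used the same NMP samples as the calls, so the contrast is partly fixed by it and is given as a description. The median over all elements was 0.12 in the pMN comparison and -0.11 with samples centered on their median, where 558 members were called higher and 20 lower. That centering turned the split of calls over all elements from 31405 higher and 22758 lower to 25766 and 28730.

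From day 4 to day 5 in the other types, the members' shares called lower were near those of all elements, and in p2 and pMN NPs their shares called higher were below them. In this interval 61 were called higher and 26 lower in p0-1 NPs (n = 6 and 6), or 9.17% and 3.91%, beside 10.8% and 3.74% of all elements. Without the day 4 p0-1 sample from 10 nM, replicate 2, these were 40 and 29. In p2 NPs (n = 6 and 6) 27 were higher and 28 lower, or 4.06% and 4.21%, beside 11.3% and 4.48%, and in pMN NPs (n = 6 and 5) 15 were higher and 36 lower, or 2.26% and 5.41%, beside 11.2% and 4.39%. With samples centered within GC bins the splits became 47 higher and 34 lower in p0-1, and 19 higher and 37 lower in p2. Over both intervals, 313 members moved by less than 0.75 VST in each of p0-1, p2 and pMN NPs between day 4 and day 6, and 76 fell by at least that much in all 3.

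Calls among p0-1, p2 and pMN NPs at day 5 were made for 67 members in at least 1 of 3 comparisons, or 10.1%, beside 12.6% of all elements. In pMN against p0-1 (n = 5 and 6), 28 members were higher and 32 lower, or 4.21% and 4.81%, beside 7.92% and 3.48% of all elements. In p2 against p0-1 (n = 6 and 6), 16 were higher and 1 lower, or 2.41% and 0.150%, beside 4.13% and 0.468%, and leaving out single p0-1 samples from 0 nM, replicates 1, 2 and 3 in turn, gave 9, 9 and 11 calls in both directions together in place of 17. In pMN against p2 (n = 5 and 6), 5 were higher and 7 lower, or 0.752% and 1.05%, beside 1.04% and 0.675%, and 12 and 13 were lower without p2 replicate 2 and without pMN replicate 1, both from 100 nM. The highest day 5 mean among the 3 types was in p0-1 for 252 members, in p2 for 214 and in pMN for 199.

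The 10 members with the largest day 5 difference between pMN and p3 were single distal elements rather than a group at 1 locus. The largest was the intergenic element 95177 bp from Mir7j (chr3:139932351-139933793). Its normalized counts were 7.27, 6.74 and 6.46 in the NMP samples and 121, 154, 125, 120.5 and 158 in p3 samples at day 4. At day 5 they were 45.7, 59.8, 69.5, 21.4 and 50.7 in p3 samples and 771, 740.2, 888, 601 and 749 in pMN samples. Every pMN sample was above every p3 sample, with a p3 minus pMN difference of -3.68 VST (SE 0.19, n = 5 and 5, limma with Benjamini-Hochberg adjusted p = 1.43e-09). At day 6 the p3 samples held 41.2, 21.4, 10.4 and 7.77, of which the lower pair came from 500 nM SAG and were near the NMP values.

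The element 69954 bp from Vps54 (chr11:21168403-21169753), whose SOX word is shown above was high in pMN NPs on every day. It had 159, 155, 167, 147 and 154 normalized counts in p3 samples at day 4, 49.3, 77.7, 61.6, 45.8 and 50.7 at day 5 and 75.9, 47.8, 28.9 and 21.4 at day 6. In pMN samples, whose mean at day 4 was 8.89 VST, it had 853, 849.7, 716, 885 and 770.1 at day 5 and 1421, 1138, 1200.4 and 1096 at day 6. The groups did not overlap at day 5, nor at day 6, where the choice required a gap. The day 5 test gave a p3 minus pMN difference of -3.59 VST (SE 0.12, n = 5 and 5, limma with Benjamini-Hochberg adjusted p = 1.09e-10).

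The element nearest to AU023762 (chr9:113486158-113487546) had 111, 77.7, 131, 73.9 and 121 normalized counts in p3 samples at day 4, 26.9, 44.6, 87.1, 33.1 and 58.2 at day 5 and 33, 29.5, 10.4 and 9.71 at day 6. In pMN samples at day 5 it had 665, 619.8, 784, 594 and 742. All pMN samples were above all p3 samples, with a p3 minus pMN difference of -3.55 VST (SE 0.20, n = 5 and 5, limma with Benjamini-Hochberg adjusted p = 2.53e-09). Its NMP values were 9.7, 8.09 and 10.8, so that the p3 samples from 500 nM at day 6 were at the NMP level.

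The A330076C08Rik element (chr13:44316849-44317931) had day 5 values of 73.6, 76.4, 69.5, 73 and 55.7 in p3 and 879, 1015, 757, 813 and 693 in pMN samples, with a p3 minus pMN difference of -3.36 VST (SE 0.12, n = 5 and 5, limma with Benjamini-Hochberg adjusted p = 1.09e-10). Its p3 values at day 4 were 123, 73.9, 88.1, 100.2 and 101. Here most of the decline in p3 came after day 5, since at day 6 the samples held 59.4, 29.5, 18.5 and 21.4.

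The 1700061F12Rik element (chr2:8498312-8499057) was lower in p0-1 than in pMN NPs as well. Its day 5 values were 19.7, 22.9, 17.6, 36 and 24.1 in p3 and 315, 375, 337, 282 and 281 in pMN samples, with a p3 minus pMN difference of -3.22 VST (SE 0.14, n = 5 and 5, limma with Benjamini-Hochberg adjusted p = 4.48e-10). The 6 p0-1 samples at day 5 had a mean VST of 6.57, against 8.36 in pMN and 5.14 in p3, and the difference between pMN and p0-1 was 1.80 (limma with Benjamini-Hochberg adjusted p = 7.57e-07). The remaining 5 of the 10 were nearest to LOC100043315 within an intron of Tmem117, to Aatf within an intron of Acaca, to R3hdm2 within its own intron, to 4930486I03Rik within an intron of Pkhd1, and to Srsf6 in an intergenic region. Their day 5 differences were -3.20, -3.10, -3.07, -3.02 and -3.00 VST, with limma Benjamini-Hochberg adjusted p values of 8.14e-10, 2.96e-09, 9e-09, 5.82e-10 and 1.56e-10.

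Members among those that fell most in p3 NPs from day 4 to day 6 were also lower at day 6 than at day 4 in each other type, by less. The falls in p3 were 4.50 VST for the Cntnap5a element, 3.77 for 4930484H19Rik and 3.33 for Oit3. The element in intron 13 of 23 of Cntnap5a, a neurexin family gene (chr1:116366168-116367816), had 626, 1058, 1041, 934 and 893 normalized counts in p3 samples at day 4 and 33, 37.6, 19.6 and 25.2 at day 6. In pMN samples it had a lowest value of 915, a median of 1011 and a highest value of 1038 at day 4 and 95, 164, 82.2 and 137 at day 6. At day 5 the p3 samples had 82.5, 119.7, 152, 96.4 and 161 and the pMN samples 215, 161, 261, 176 and 267, with a p3 minus pMN difference of -0.77 VST (SE 0.18, n = 5 and 5, limma with Benjamini-Hochberg adjusted p = 0.00189), a difference under the size required for a call.

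The elements nearest to 4930484H19Rik (chr10:126813844-126814584) and within intron 5 of 8 of Oit3 (chr10:59429656-59431013) were likewise lower in both types at day 6. The first had 194, 315, 275, 269 and 251 normalized counts in p3 samples at day 4 and 14.8, 9.16, 10.4 and 3.88 at day 6, and 69, 90.1, 64.1 and 65.4 in pMN samples at day 6. The second had 367, 281, 271, 253 and 235 and 14.8, 21.4, 19.6 and 14.6 in p3 samples, and 95, 79.8, 55.1 and 49 in pMN samples at day 6. Day 5 differences from pMN were -1.77 and -1.62 VST, with limma Benjamini-Hochberg adjusted p values of 2.19e-07 and 1.08e-07.

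**Figure D5:**
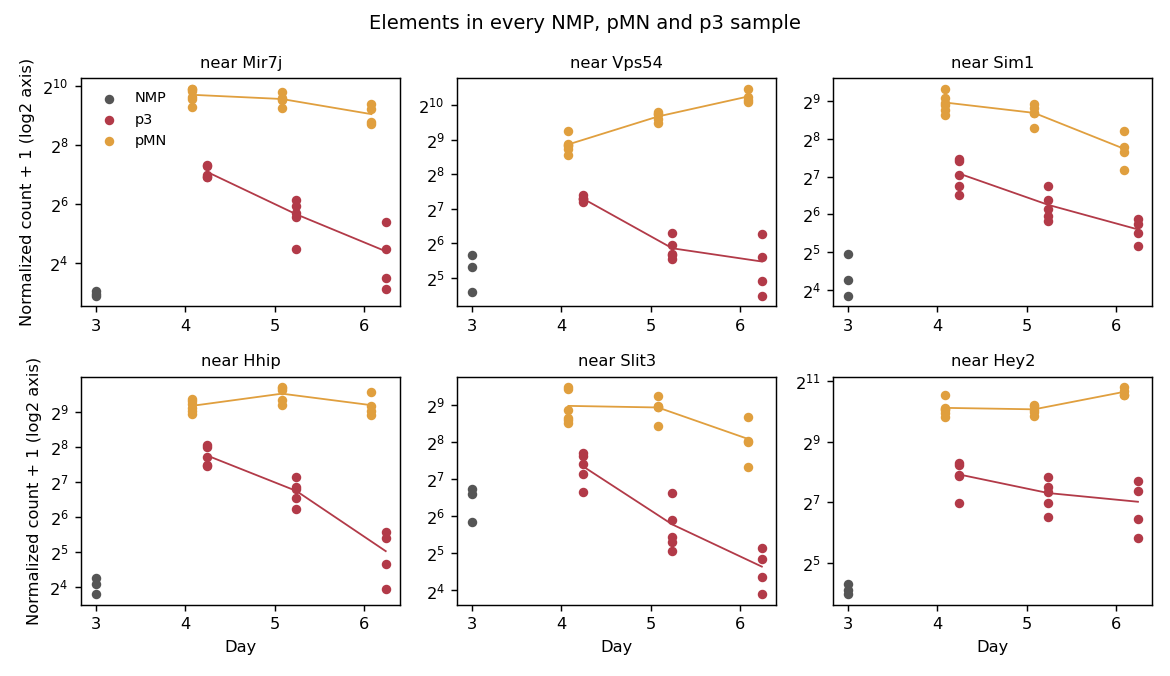
Normalized counts plus 1 (y axis, log2 scale) of 6 members in every NMP, pMN and p3 sample by day (x axis), with lines through group means. In each of the 6 panels (Mir7j, Vps54, Sim1, Hhip, Slit3 and Hey2) every pMN sample lies above every p3 sample at days 5 and 6. The gap at day 6 was required by the choice.

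Genes of neural development were next to few members. Elements were assigned to 11 gene lists by their nearest gene, which is a label of position and not of regulation, and 0.596% of all elements were members. The neural progenitor factors had 4 members of 149 elements (2.68%), the class I and dorsal patterning factors 4 of 258 (1.55%), the gliogenic and late progenitor factors 6 of 335 (1.79%), the Hedgehog pathway 3 of 159 (1.89%) and the axon guidance and cell adhesion genes 19 of 1580 (1.203%). The FGF and Wnt pathways had 5 of 545 (0.917%), the retinoic acid pathway and Hox cofactors 3 of 343 (0.875%), the ventral patterning factors 1 of 181 (0.552%), the Notch pathway 1 of 215 (0.465%) and the synaptic and receptor genes 1 of 550 (0.182%). Proneural and neuronal differentiation factors had 0 of 294. At day 5 against pMN, the members called lower in p3 were 2 of 4, 4 of 4, 4 of 6, 3 of 3, 16 of 19, 4 of 5, 3 of 3, 1 of 1, 1 of 1 and 1 of 1 in the same order. These counts stand beside 76.5% of all members and 12.1% of all elements.

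Among neural progenitor factors, both members nearest to Sox1, a SOXB1 factor that marks neural progenitors, lay within introns of the overlapping transcript Sox1ot. The wider one (chr8:12429665-12431862) was among the most accessible members, with 2717, 2142, 1964, 1554 and 1650.0 normalized counts in p3 samples at day 4, 745, 1049, 1041, 957 and 881 at day 5 and 397, 479, 303 and 342 at day 6. The pMN samples had 2328, 2454, 2035, 2656 and 1862 at day 5, all above the p3 samples, with a p3 minus pMN difference of -1.27 VST (SE 0.10, n = 5 and 5, limma with Benjamini-Hochberg adjusted p = 7.36e-08). The narrower one (chr8:12432518-12432878) had 70.9, 76.4, 76.5, 80.8 and 48.2 in p3 and 284, 255, 213, 209.9 and 175 in pMN samples at day 5, with a p3 minus pMN difference of -1.53 VST (SE 0.15, n = 5 and 5, limma with Benjamini-Hochberg adjusted p = 4.68e-07). At day 4 the p3 and pMN values of the narrower element overlapped, with 172, 163, 109, 115 and 89.2 in p3 samples and a lowest value of 107, a median of 143 and a highest value of 159 in pMN samples. The member next to Pou3f1, a further progenitor factor, had a day 5 difference of -0.95 VST and was not called. Its mean in p3 NPs at day 4, 7.72 VST, was below its NMP mean of 8.78.

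The class I and dorsal patterning factors, homeodomain genes expressed dorsal to p3, had members next to Irx3, Irx5, Pax6 and Dbx2. The Irx3 element lay 263627 bp from its TSS (chr8:92063709-92066854) and was already lower in p3 NPs at day 4, at 341, 320.4, 262, 233 and 194 normalized counts against a lowest value of 703, a median of 883 and a highest value of 999 in pMN samples. At day 5 it had 215, 214, 165, 180.1 and 170.3 in p3 and 637, 640.0, 480.4, 566 and 373 in pMN samples, with a p3 minus pMN difference of -1.43 VST (SE 0.14, n = 5 and 5, limma with Benjamini-Hochberg adjusted p = 4.35e-07). It was open in NMPs, at 383, 336 and 404, and is 1 of the members that did not open after day 3 in p3 NPs. The Irx5, Pax6 and Dbx2 elements did not rise by 1 VST in p3 NPs either. From NMPs to day 4 p3 NPs their means went from 6.51 to 6.84, from 9.49 to 8.89 and from 8.27 to 7.52 VST. The Irx5 element (chr8:92366597-92367417) had 63.7, 103, 79.1, 81.8 and 62.3 in p3 and 245, 234, 174, 226 and 131 in pMN samples at day 5, with a p3 minus pMN difference of -1.23 VST (SE 0.17, n = 5 and 5, limma with Benjamini-Hochberg adjusted p = 1.65e-05), and was not called in the 500 nM samples alone, with an adjusted p of 0.0293. The Pax6 and Dbx2 elements had day 5 differences of -1.21 and -1.15 VST. The first was annotated as promoter-TSS, though 5608 bp from the TSS, and the second lay in intron 1 of 3, 747 bp from the TSS.

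The Hedgehog pathway list had members next to Hhip, Scube2 and Ptch1, whose products bind Hedgehog ligands or aid their release. The Hhip element, in intron 4 of 12 of the gene for Hedgehog interacting protein (chr8:80037422-80038392), had 18.2, 16.2 and 12.9 normalized counts in NMP samples and 262, 174, 209, 254 and 177 in p3 samples at day 4. At day 5 it had 74.5, 115, 139.8, 110.0 and 93.1 in p3 and 789, 808, 641, 825 and 585 in pMN samples, and at day 6 41.2, 46.8, 24.3 and 14.6 and 749, 523, 576 and 476. The groups did not overlap at day 5, nor at day 6, where the choice required a gap. The day 5 test gave a p3 minus pMN difference of -2.65 VST (SE 0.14, n = 5 and 5, limma with Benjamini-Hochberg adjusted p = 1.85e-09). The Scube2 element, in intron 4 of 21, had 186, 236, 291, 201 and 253 in p3 and 635, 629, 648, 602 and 599.7 in pMN samples, with a p3 minus pMN difference of -1.39 VST (SE 0.11, n = 5 and 5, limma with Benjamini-Hochberg adjusted p = 4.9e-08). The element 27936 bp from Ptch1, the Shh receptor, had a day 5 difference of -1.38 VST. All 3 were called higher at day 4 in pMN NPs than in NMPs.

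The Notch list had 1 member, 40740 bp from Hey2, a Notch effector gene (chr10:30883125-30883921), and it was low in p0-1 as well as in p3 NPs at day 5. It had 91.5, 126, 226, 179 and 163 normalized counts in p3 and 1019, 929.7, 1193, 1068 and 1158 in pMN samples at day 5, with a p3 minus pMN difference of -2.73 VST (SE 0.17, n = 5 and 5, limma with Benjamini-Hochberg adjusted p = 5.77e-09). Its p0-1 mean was 7.08 VST, against 7.35 in p3 and 10.08 in pMN NPs, and the p3 minus p0-1 difference was 0.27 VST (limma with Benjamini-Hochberg adjusted p = 0.518). The ventral list had 1 member, 258061 bp from Sim1, a bHLH-PAS gene of p3-derived neurons (chr10:51153018-51154407). It had 55.6, 70, 106, 61.3 and 82.3 in p3 and 407, 448, 482, 313 and 408 in pMN samples at day 5, with a p3 minus pMN difference of -2.29 VST (SE 0.15, n = 5 and 5, limma with Benjamini-Hochberg adjusted p = 1.11e-08).

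Axon guidance and adhesion genes formed the list with the most elements and, by count but not by share, the most members. The element in intron 1 of 35 of Slit3, a ligand of Robo receptors (chr11:35151122-35152317), had 168, 140.3, 206, 100.2 and 194 normalized counts in p3 samples at day 4, 38.6, 42, 97.6, 32.1 and 59 at day 5 and 28, 34.6, 13.9 and 19.4 at day 6. The pMN samples had 493, 489, 603, 347 and 499 at day 5 and did not overlap with p3, with a p3 minus pMN difference of -2.98 VST (SE 0.21, n = 5 and 5, limma with Benjamini-Hochberg adjusted p = 1.85e-08). Tenm3, which encodes a teneurin adhesion protein, was the gene nearest to the most members, 5. Their day 5 differences from pMN were -2.68, -1.60, -1.24, -0.96 and -0.78 VST, and the first 3 were called. The first, in intron 2 of 28 (chr8:48540596-48541461), had 49.3, 43.3, 61.6, 26.3 and 40.7 in p3 and 422, 340.2, 374, 278 and 311 in pMN samples at day 5. Car10 and Tle1 had 3 members each and 33 genes had 2.

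The remaining lists held members next to Wnt pathway, gliogenic and late progenitor, retinoic acid and synaptic genes. The Axin2 element, 26368 bp from a Wnt target gene (chr11:108893201-108894761), was open in NMPs at 257, 204 and 394 normalized counts and had 123, 131, 112, 111 and 114 in p3 samples at day 4, below the NMP samples. At day 5 it had 54.7, 59.8, 95, 73 and 65.6 in p3 and 367, 399, 431, 361 and 363 in pMN samples, with a p3 minus pMN difference of -2.29 VST (SE 0.13, n = 5 and 5, limma with Benjamini-Hochberg adjusted p = 2.32e-09). The element in exon 3 of 3 of Sfrp1, which encodes a secreted Wnt antagonist (chr8:23448416-23449649), had 36.8, 42, 29.9, 36 and 34.9 and 231, 196, 169.6, 185 and 154, with a p3 minus pMN difference of -2.05 VST (SE 0.13, n = 5 and 5, limma with Benjamini-Hochberg adjusted p = 6.02e-09). Among gliogenic and late factors, the Tox element (chr4:7246839-7248227) was not lower at day 5 than at day 4 in p3 samples, with 377, 408, 601, 546 and 477 at day 4, 503, 539, 725, 502 and 585 at day 5 and 411, 232, 214 and 101 at day 6. The pMN samples had 1892, 1809, 1771, 1749 and 1601 at day 5, with a p3 minus pMN difference of -1.62 VST (SE 0.09, n = 5 and 5, limma with Benjamini-Hochberg adjusted p = 2.53e-09). Day 5 differences of the Zbtb20, Nr2f1, Meis1 and Nrxn3 elements were -1.65, -2.31, -1.49 and -1.93 VST, with limma Benjamini-Hochberg adjusted p values of 4.7e-09, 6.78e-07, 3.06e-07 and 7.54e-08.

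Elements nearest to the TSS of marker genes were used to look at the sorted types. The Nkx2-9 element, next to a p3 gene, had day 5 means of 9.20, 10.07, 10.87 and 11.22 VST in p0-1, p2, pMN and p3 NPs, but at day 6 it was at 10.90 in p3 and 11.03 in pMN. The element nearest to the TSS of Sim1, on the same list, did not set p3 apart at day 5, at 9.31, 9.26, 9.08 and 9.29 in the same order. The Olig2 element was at 8.61, 9.64, 10.94 and 10.03 at day 5. Of the other pMN markers, the Olig1 element was at 8.60, 9.03, 9.81 and 9.26 in the same order. The Lhx3 element was at 7.72, 7.55, 7.89 and 7.59. The Mnx1 element, at 9.71, 9.51, 9.66 and 9.61, did not set pMN apart. The Dbx1 element was highest in p0-1 NPs, at 11.03 against 9.82, 9.85 and 9.47 in p2, pMN and p3, as was the Prdm12 element, at 11.08 against 10.41, 9.93 and 9.19. On the same list, the Dbx2 element, itself a member, was at 8.22, 8.02, 8.19 and 7.05 and the Pax6 element at 11.71, 11.69, 11.55 and 11.02 in p0-1, p2, pMN and p3. This Pax6 element is not the member named above. The Irx3 element, next to a p2 marker and also not the member named above, did not set p2 apart. It was at 11.44, 11.27, 11.12 and 11.12 in p0-1, p2, pMN and p3. An element for Nkx2-2 was not analysed here. The elements of the floor plate markers Foxa2 and Shh were higher in p3 than in every other NP type at days 5 and 6. In p3 at day 6 Foxa2 was at 10.66 and Shh at 8.14 VST. The study reports Foxa2 expression in p3 NPs themselves, and little floor plate marker expression in its spinal cord conditions. In NMPs the Foxa2 and Shh elements were at 10.55 and 8.17 VST, near these p3 values. Summed normalized counts of these 2 markers were between 1236 and 1734 in p3 samples at day 4, 1255 and 1840.4 at day 5 and 1433 and 2592 at day 6, against 359.8 to 589 in pMN samples at day 5, and 0 of the 2 were at 0 in every sample. The sums were higher in every p3 sample than in every pMN sample at day 5, as the members were lower, and their part in the result was not tested. Summed counts of 4 neuronal markers at day 5 were between 1590 and 2107 in p3, between 2642 and 2889 in pMN, between 1779 and 4074 in p2, and between 1333 and 2086 in p0-1 samples, and their part was not tested either.

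A pair of comparison sets was set beside the members. Elements lower in p3 at day 6 by the same bound but under 6.5 in p3 at day 4 numbered 5836, and their median was 3.85 VST in NMPs, 4.58 in p3 and 5.43 in pMN NPs at day 4, and 4.46 in p3 and 6.28 in pMN NPs at day 6. The members' median in pMN NPs at day 6 was 8.13. Elements that rose by at least 1 VST from NMPs to at least 6.5 in p3 at day 4, fell by at most 0.25 by day 6 and had day 6 means in the other types within 0.5 VST of p3 numbered 697, and their median was 8.06 in p3 at day 4, 8.98 at day 5 and 8.99 at day 6. At day 4 the median difference between p3 and pMN was -0.80 VST in members, -0.76 in the first set and -0.09 in the second, and at day 5 it was -1.43, -1.40 and -0.03. The SOX word was in 12.2% and 10.2% of the windows of these sets, against 15.2% in members, and the RFX half-site in 3.00% and 6.46% against 2.56%. All of these values follow from, or lie beside, the bounds that defined the sets, and were not tested.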

How the data were processed

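CaTS-ATAC, an ATAC-seq of fixed and sorted cells, was run on 67 samples. The authors trimmed and aligned the reads to mm10 with nf-core/atacseq, called peaks with MACS at a false discovery rate of 1e-05, kept peaks shared by 2 or more replicates and counted the reads of each. The values deposited by the authors are on a log2 scale, the DESeq2 variance-stabilizing transformation of size-factor normalized counts, so that differences of low elements are compressed. A deposited annotation gave mm10 coordinates and nearest genes.

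The transformation was inverted to normalized counts and reads, and 100% of values below 1000 reads were whole in every sample (tolerance 1e-06). Reads in elements gave the depth, 9298160 to 29985325 per sample. Members and both comparison sets were found from mean VST. Linear models were fitted to VST over all 111638 elements with limma 3.58.1 in R 4.3.3, with a mean-variance trend, only the groups compared in each fit, and Benjamini-Hochberg adjustment over all elements, two-sided, without a filter on low values. In simulated data for day 5 p3 against pMN over 111638 elements, 20% of 2-fold, 94% of 3-fold and 100% of 4-fold changes were called, with 0 false calls. The simulation gave all elements the same dispersion, 0.0118, changed only elements above a count bound, and drew samples independently. Its rates therefore do not carry over to the real fits, where variance differs between elements and replicates deviate together. Sequences were read from GRCm38 with pyfaidx 0.9.0.4. Motif words were counted on both strands in 300 bp windows.

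Members, lists and words were chosen with earlier results of these data known. Named elements were the 10 with the largest day 5 difference between pMN and p3, the 5 with the largest fall in p3, the 2 of each gene list with the largest day 5 difference, those at the thresholds and the gene with 5 or more members. A few elements and 1 marker under this rule are not reported here. Any other named element was chosen after its values were seen.

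Samples were grouped by their GEO labels, with replicate numbers from the titles; for 15 samples the description gives another number. Samples of the same number deviated together at day 5, with every 1 of 71 pairs at a correlation above 0.1 and a median of 0.32, against -0.18 for different numbers, so fits with the replicate number as a block were run. Between NMPs and day 4 p0-1 NPs 3 of 6 pairs were above 0.1. From day 4 to day 5 this held for 12 of 12 pairs in p2, 10 of 10 in pMN and 8 of 12 in p0-1 NPs. Alternatives were a fold above 2 in normalized counts, a VST difference above 2, a mean above 100 normalized counts, 2 centerings of samples, no variance trend, voom weights on recovered reads, single SAG concentrations and leaving out each sample.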

Additional observations from a re-analysis of the deposited data

Results flagged for a closer look

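In 3 of 90 groups of 4 to 6 samples tested, 1 sample stood apart from the others of its day and cell type, and chance alone gives about 1 in 20 groups. The pMN sample from 500 nM SAG, replicate 2, at day 5 had 8.77 VST at the LOC100043315 element, where the other 4 were between 9.25 and 9.38. The pMN sample from 500 nM, replicate 3, at day 4 had 9.86 at the Cntnap5a element, where the other 5 were between 9.99 and 10.04. The pMN sample from 100 nM, replicate 1, at day 4 had 8.76 at the 4930484H19Rik element, where the other 5 were between 8.93 and 9.01. The medians over the 665 members held no such sample in the groups of 4 to 6 samples.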

How the results depend on the processing

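A VST difference above 2 in place of 1 lowered the counts of members called most, to 133, 196 and 190 lower in day 5 p3 than in pMN, in p2 and in p0-1 NPs, to 3, 1 and 3 from day 4 to day 5 in p0-1, p2 and pMN, and to 3, 0 and 0 for p0-1 against pMN, p0-1 against p2 and p2 against pMN. Bounds on the VST differences raised by 0.25 gave 424 members and bounds lowered by 0.25 gave 1004. Leaving out single samples gave 570 to 762 members, 493 to 539, 507 to 541 and 465 to 501 lower in p3 than in pMN, p2 and p0-1, 551 to 568, 573 to 581 and 570 to 579 higher in p0-1, p2 and pMN than in NMPs, 69 to 105, 50 to 60 and 48 to 57 changed from day 4 to day 5, 53 to 67, 9 to 22 and 11 to 18 among p0-1, p2 and pMN, and 0 to 0 between SAG concentrations. The p0-1 against p2 count fell from 17 to 9, 9 and 11 without each p0-1 sample from 0 nM. With the replicate number as a block, 1 member was called between p3 at 100 and 500 nM in place of 0, 509 were lower in p3 than in pMN, and the block moved no other count by over 1.5 times. Other alternatives kept the counts within 1.5 times. The cause of these shifts was not tested, other than the stricter bounds themselves. Depth limits low values: p3 samples at day 6 had a median member at 50.6 normalized counts.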
